A study of Mus musculus with 8 samples.

Results

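The genes described here are 10 mouse genes whose RNA was far more abundant in the medial prefrontal cortex (mPFC) than in the nucleus accumbens (NAc): Krt80, Hkdc1, Clec18a, Exph5, Osr1, Xirp2, Smoc2, Mylk3, Fap and A830009L08Rik. They are 10 of 33885 gene symbols in the count tables, and all 10 were found by symbol in both tables and passed the low-count filter of every comparison. They were picked for large decreases from mPFC to NAc in home-cage mice, so that contrast is described without a test. Total RNA came from adult male C57Bl6J mice, an inbred strain, in 8 libraries that form 4 groups of 2. The NAc groups were mice trained in conditioned place preference, which pairs a place with a drug, with intraperitoneal cocaine at 7.5 mg/kg (n = 2) and mice left in the home cage (n = 2). The mPFC groups were mice that had met social defeat by an aggressive CD1 male (n = 2) and home-cage mice (n = 2), and the titles of all 4 mPFC libraries carry WT, the usual mark of wild type. Tissue of the exposed mice was taken 15 minutes after the experience. The labels give no age beyond adult and do not say whether replicates are separate or pooled animals, so each p-value reflects the spread between the samples alone, which may be technical.

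The mPFC is a layered cortex built mostly of glutamatergic projection neurons, while the NAc is a ventral striatal nucleus built mostly of GABAergic projection neurons that express dopamine receptors. Bulk RNA of either region also holds glia, vessels and connective tissue. Several of the genes are best known outside the brain: a keratin of epithelia, actin and myosin regulators of striated muscle, and a peptidase and a transcription factor of fibroblasts and mesenchyme. In bulk tissue, fewer cells that express a gene and less RNA per cell cannot be told apart.

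Library totals ranged from 111901829 to 179479978 counts. Of 18 striatal projection neuron markers, 17 were higher in NAc of exposed mice than in mPFC, with a median log2 fold change of 3.47. Of 11 tested markers of cortical glutamatergic neurons, 8 were lower in NAc. The NAc libraries nevertheless held these cortical markers at substantial levels. Slc17a7, the vesicular glutamate transporter of cortical neurons, stood at 58.6% of its mPFC mean in home-cage NAc and at 60.8% in exposed mice. The NAc libraries also differed by the number in their labels (1 or 2), as described below.

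The label of near absence holds only in relative terms. All 10 genes had counts in every NAc library, from 9 to 702, against 303 to 8181 in the mPFC libraries. In CPM, which are counts scaled by library total and TMM factors over the 8 libraries, 32 of the 40 NAc values were below 1. In home-cage mice the NAc mean was between 3.35% (Krt80) and 9.02% (Fap) of the mPFC mean. For each of the 10 genes, the lowest of the 4 mPFC libraries lay above the highest of the 4 NAc libraries, by 4.22-fold for Smoc2 and by 23.2-fold for Osr1 at the extremes. Of 18783 genes 22.7% had all 4 mPFC libraries above all 4 NAc libraries, and 4 of these 8 libraries were used to pick the 10. The sum of the 10 genes was 161, 172, 157 and 155 CPM in the mPFC libraries, and 4.95 to 13.4 CPM in the NAc libraries.

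**Figure D1:**
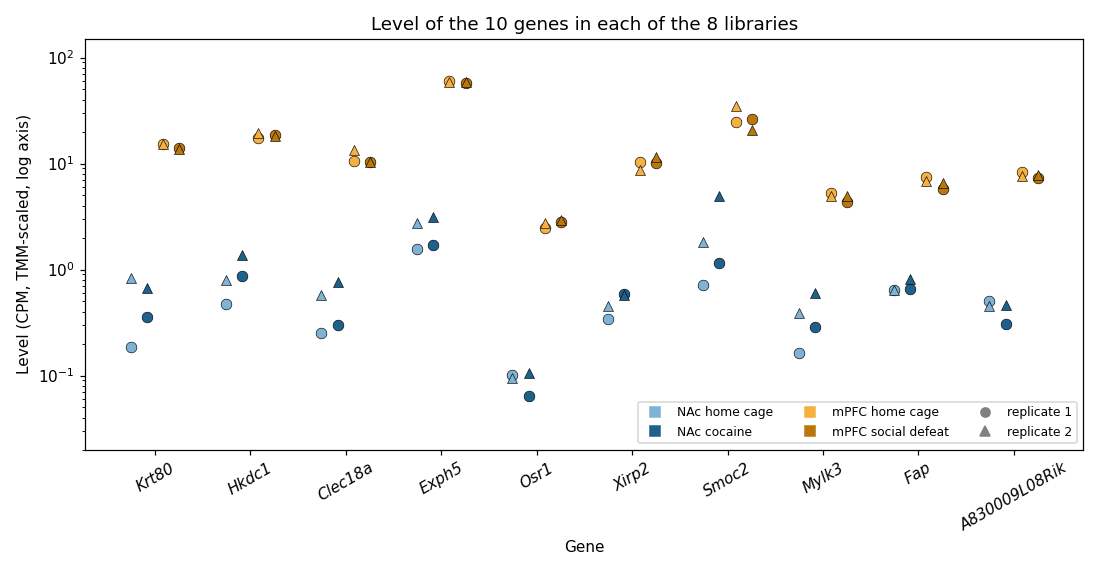
Level of each of the 10 genes (CPM, log axis) in the 8 libraries, with colours for the 4 groups, circles for replicate 1 and triangles for replicate 2. For every gene the 4 mPFC points lie above the 4 NAc points, and the NAc points spread more widely than the mPFC points for Smoc2, Krt80 and Clec18a.

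In the home-cage contrast 5.35% of tested genes passed as lower, and both mPFC libraries lay above both NAc libraries for 30.6% of them. The choice of the 10 genes among these did not follow a clean threshold. Among 755 genes that were lower in home-cage NAc, with adjusted p under 0.05, no overlap between the libraries and a mean of at least 1 CPM in any of the 4 groups (provisional gene models left out), the 10 genes held places between 2 (Krt80, log2 fold change -4.95) and 20 (Fap, -3.48). A total of 10 other genes ranked above Fap, among them Atp12a, which encodes a proton pump subunit, at -5.13. The 3 genes just outside were Scn7a at -3.41, Cpne9 at -3.40 and Raet1e at -3.38.

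The cytoskeletal genes are Krt80, Xirp2 and Mylk3. Krt80, a type II keratin that forms intermediate filaments with type I partners, had 15.1 and 15.3 CPM in home-cage mPFC and 14.0 and 13.7 CPM after social defeat. In NAc it had 0.186 and 0.834 CPM in home-cage replicates 1 and 2, and 0.359 and 0.672 CPM in cocaine replicates 1 and 2. The mPFC libraries agreed within 1.12-fold, while the NAc libraries spanned 4.47-fold.

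Xirp2, an actin-binding protein with Xin repeats known from heart and skeletal muscle, had 10.3 and 8.70 CPM in home-cage mPFC and 10.2 and 11.4 CPM after defeat. Its NAc values were 0.345 and 0.449 CPM in home-cage mice and 0.588 and 0.581 CPM after cocaine. Mylk3, the myosin light chain kinase of heart muscle, had 5.26 and 4.96 CPM in home-cage mPFC and 4.37 and 4.95 CPM after defeat. In NAc it had 0.164 and 0.391 CPM in home-cage replicates 1 and 2 and 0.287 and 0.602 CPM in cocaine replicates 1 and 2, so both number 2 libraries were the higher of their pair.

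The metabolic and vesicle genes are Hkdc1 and Exph5. Hkdc1, a hexokinase domain protein that phosphorylates glucose, had 17.4 and 19.6 CPM in home-cage mPFC, 18.7 and 18.2 CPM after defeat, 0.475 and 0.798 CPM in home-cage NAc, and 0.876 and 1.36 CPM after cocaine. Both cocaine libraries were above both home-cage NAc libraries. Exph5, an effector of the small GTPase Rab27 in vesicle traffic, was the most abundant of the 10 per length in mPFC. In NAc Smoc2 had the highest mean per kilobase of exon, but its range (0.103 to 0.707 CPM) enclosed that of Exph5 (0.149 to 0.296 CPM). Per kilobase of the whole gene, Exph5 was in place 1 in NAc and Smoc2 in place 5. Exph5 had 59.5 and 58.4 CPM in home-cage mPFC and 57.2 and 58.6 CPM after defeat. In NAc it had 1.57 and 2.77 CPM in home-cage mice, and 1.69 and 3.11 CPM after cocaine. Its mPFC values varied least of the 10, with a coefficient of variation of 1.58% over the 4 libraries.

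The secreted and cell surface genes are Clec18a, Smoc2 and Fap. Clec18a, a C-type lectin domain protein, had 10.6 and 13.4 CPM in home-cage mPFC, 10.2 and 10.2 CPM after defeat, 0.254 and 0.58 CPM in home-cage NAc, and 0.301 and 0.77 CPM after cocaine. Smoc2, a calcium-binding matrix protein related to SPARC, varied most in both regions. It had 24.6 and 34.6 CPM in home-cage mPFC and 26.2 and 20.8 CPM after defeat. In NAc it had 0.717 and 1.80 CPM in home-cage replicates 1 and 2, and 1.14 and 4.91 CPM in cocaine replicates 1 and 2, so 1 library held the highest NAc value of any of the 10 genes. Fap, a prolyl peptidase of activated fibroblasts, had 7.38 and 6.77 CPM in home-cage mPFC, 5.78 and 6.56 CPM after defeat, 0.638 and 0.638 CPM in home-cage NAc, and 0.653 and 0.812 CPM after cocaine. The NAc libraries agreed within 1.27-fold for Fap, the narrowest range of the 10.

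The remaining genes are Osr1 and A830009L08Rik. Osr1, an odd-skipped zinc finger transcription factor of kidney, heart and limb development, had the lowest counts of the 10 in mPFC and NAc, with 2.44 and 2.72 CPM in home-cage mPFC, 2.81 and 2.95 CPM after defeat, 0.102 and 0.0943 CPM in home-cage NAc, and 0.0646 and 0.105 CPM after cocaine. Its NAc values rest on 18, 13, 9 and 15 counts, and the exact Poisson 95% interval of the lowest runs from 4.12 to 17.1 counts. A830009L08Rik, a long intergenic noncoding RNA, had 8.39 and 7.54 CPM in home-cage mPFC, 7.25 and 7.85 CPM after defeat, 0.503 and 0.449 CPM in home-cage NAc, and 0.309 and 0.462 CPM after cocaine. Such an interval covers counting error alone: the libraries carried no stated molecular identifiers, so reads may be copies of 1 molecule.

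Levels of different genes are compared per length. Per kilobase of annotated exon, the mPFC means ran from 5.55 CPM (Exph5) through 3.82 (Smoc2), 3.60 (Hkdc1), 3.04 (Clec18a), 2.76 (A830009L08Rik), 2.27 (Krt80), 1.32 (Osr1), 1.17 (Fap) and 1.14 (Mylk3) to 0.849 CPM (Xirp2). Ranges over the 4 mPFC libraries overlapped between Smoc2 and Hkdc1, Hkdc1 and Clec18a, Clec18a and A830009L08Rik, Osr1 and Fap, and Fap and Mylk3, so these neighbours in the order do not differ beyond their spread. Whether reads in introns were counted is not given in the sources used here. Per kilobase of the whole gene, Exph5 stayed in place 1 and Smoc2, with a span of 125 kb, moved from place 2 to place 7.

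Per GENCODE M21 (GRCm38, mm10), 9 of the genes are protein coding and lie, with the noncoding gene, on 8 chromosomes. Krt80 lies on chromosome 15 at 101347444 to 101370162, Hkdc1 on chromosome 10 at 62383137 to 62422491, Exph5 on chromosome 9 at 53301670 to 53377514, Osr1 on chromosome 12 at 9570116 to 9581500 and Smoc2 on chromosome 17 at 14279506 to 14404790. Fap (62500943 to 62574075) and Xirp2 (67446002 to 67526614) lie 4.87 Mb apart on chromosome 2. Mylk3 (85324303 to 85386345) and Clec18a (111058920 to 111092426) lie 25.7 Mb apart on chromosome 8. A830009L08Rik lies on chromosome 13 at 91368990 to 91388085. Krt80, Osr1, Xirp2, Smoc2 and Mylk3 overlap genes on the opposite strand, and A830009L08Rik holds a gene within an intron on its own strand. Without knowledge of strand in the counting, reads of such pairs cannot be told apart.

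Most of the genes beside them did not pass as lower in NAc, but as a set they leaned that way. Of 19 neighbouring protein-coding genes tested in exposed mice, 7 were lower in NAc and 2 higher, where 17.1% of all tested genes were lower and 19.2% higher. Their median log2 fold change was -0.28, against 0.01 over all tested genes. Hk1, the main brain hexokinase, lies 3.23 kb from Hkdc1 on the same strand and stood at -0.49 on the log2 scale (SE 0.119, edgeR adjusted p = 0.0258), while Supv3l1, a mitochondrial RNA helicase 6.72 kb away on the other side, had -0.00 (SE 0.07, adjusted p = 0.993). Pdpr and Aars, on either side of Clec18a, had 0.03 (SE 0.0627, adjusted p = 0.727) and -0.37 (SE 0.0909, adjusted p = 0.0268). Both neighbours of Fap were lower in NAc. These were Ifih1, a sensor of viral RNA, at -0.65 (SE 0.114, adjusted p = 0.0106) and the glucagon gene Gcg at -2.26 (SE 0.431, adjusted p = 0.0132), which had only 4 to 20 counts per library. Krt7, the coding neighbour of Krt80 and also a keratin, had -2.19 (SE 0.355, adjusted p = 0.00835) with 4 to 51 counts.

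Promoter sequence was looked up because the 10 genes were chosen to share 1 regional difference. RefSeq (GRCm38.p6) start sites gave 7 upstream windows of 250 bases for 6 of the genes, Xirp2, Clec18a, Exph5, Hkdc1, Mylk3 and A830009L08Rik. Xirp2 (chr2:67445752-67446001, forward strand) and Clec18a (chr8:111081709-111081958, reverse strand) are shown because they held the less common motifs, and Hkdc1 (chr10:62422458-62422707, reverse strand) and Exph5 (chr9:53301420-53301669, forward strand) for comparison. Each is written 5′ to 3′ up to the base before the start site, with capitals for motif matches on either strand.
Xirp2: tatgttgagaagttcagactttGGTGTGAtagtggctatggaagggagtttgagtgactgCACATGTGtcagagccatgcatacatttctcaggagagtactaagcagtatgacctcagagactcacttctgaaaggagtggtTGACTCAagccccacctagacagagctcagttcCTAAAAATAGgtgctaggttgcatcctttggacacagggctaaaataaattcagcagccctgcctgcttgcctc
Clec18a: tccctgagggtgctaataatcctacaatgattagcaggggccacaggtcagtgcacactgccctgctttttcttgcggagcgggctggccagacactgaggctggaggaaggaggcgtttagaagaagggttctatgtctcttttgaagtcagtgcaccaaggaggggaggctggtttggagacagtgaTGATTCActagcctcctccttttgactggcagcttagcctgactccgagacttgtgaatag
Hkdc1: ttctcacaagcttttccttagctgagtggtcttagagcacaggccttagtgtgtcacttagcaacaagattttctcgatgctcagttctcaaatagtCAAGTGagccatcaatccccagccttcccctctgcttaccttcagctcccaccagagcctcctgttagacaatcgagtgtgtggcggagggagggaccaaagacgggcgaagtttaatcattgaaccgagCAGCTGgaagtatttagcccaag
Exph5: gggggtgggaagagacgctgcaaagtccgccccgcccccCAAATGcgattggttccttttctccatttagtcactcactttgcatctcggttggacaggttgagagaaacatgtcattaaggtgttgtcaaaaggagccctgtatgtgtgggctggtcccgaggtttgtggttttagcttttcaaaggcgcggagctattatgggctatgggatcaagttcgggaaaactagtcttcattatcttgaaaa

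In Xirp2 the capitals mark, in order, the reverse complement of the T-box core TCACACC at -228 from the start site, a pair of overlapping E-boxes (CANNTG) at -190 and -188, an AP-1 site (TGANTCA) at -107 and a MEF2 site at -74. MEF2 factors are known regulators of muscle genes. In Clec18a they mark an AP-1 site at -61, and in Hkdc1 and Exph5 only E-boxes. Of the 7 windows, 5 held an E-box, 2 an AP-1 site, 1 a MEF2 site and 1 a T-box core, against 66.2%, 6.75%, 2.92% and 3.33% of 32851 promoter windows of the same length. None of the 7 held the cAMP response element TGACGTCA (1.55% of all windows), its shorter core TGACG (17.8%), the E-box CAGATG (14.4%), a CArG box (1.47%), the sequence TTCAGCACC (0.301%) or, on the forward strand, TATAAA (7.59%). These matches describe letters in a window and were not tested as binding sites.

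The libraries outside the home-cage contrast, NAc after cocaine and mPFC after social defeat, showed the same regional difference. The 10 genes were chosen with earlier results of these data known, so these libraries were not wholly independent of the choice. In these 4 libraries all 10 genes were lower in NAc, where 17.1% of the 18362 tested genes passed as lower. Both mPFC libraries lay above both NAc libraries for each of the 10, as for 38.0% of tested genes. A decrease of at least 8-fold was seen in 9 of the 10, against 0.398% of tested genes, and the 10 held places between 8 and 77 of 18362 by log2 fold change. The median log2 fold change was -4.22, against 0.01 over all tested genes. Region and kind of experience cannot be told apart in this contrast.

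Among the 10, Osr1 had the largest decrease, at -5.06 on the log2 scale (SE 0.24, edgeR adjusted p = 0.000589), followed by Krt80 at -4.73 (SE 0.258, adjusted p = 0.000694) and Exph5 at -4.58 (SE 0.273, adjusted p = 0.000785). Expressed as means, Krt80 had 0.515 ± 0.221 CPM (SD, n = 2) in NAc and 13.9 ± 0.23 CPM (SD, n = 2) in mPFC, a 26.9-fold difference. A830009L08Rik had -4.27 (SE 0.199, adjusted p = 0.000589), Clec18a -4.24 (SE 0.366, adjusted p = 0.00168), Xirp2 -4.19 (SE 0.124, adjusted p = 0.000251) and Hkdc1 -4.03 (SE 0.204, adjusted p = 0.000589). Mylk3 had -3.37 (SE 0.317, adjusted p = 0.00212), Fap -3.06 (SE 0.16, adjusted p = 0.000618) and Smoc2 -2.94 (SE 0.607, adjusted p = 0.0165). Smoc2 was thus the least certain of the 10.

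Single NAc libraries and the NAc number moved the size of some of these values. Without cocaine replicate 2 the log2 fold change was -4.35 for Smoc2, -5.07 for Clec18a and -4.01 for Mylk3, and without cocaine replicate 1 it was -2.24, -3.72 and -2.94. With all 8 libraries and a term for the NAc number, which sets NAc number 1 against mPFC, 4 values moved most: Krt80 to -5.64, Clec18a to -5.02, Smoc2 to -4.13 and Mylk3 to -4.05. Without either social defeat library, 9 of the 10 passed: Smoc2 then had adjusted p = 0.11 (without replicate 1) and adjusted p = 0.0753 (without replicate 2).

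**Figure D2:**
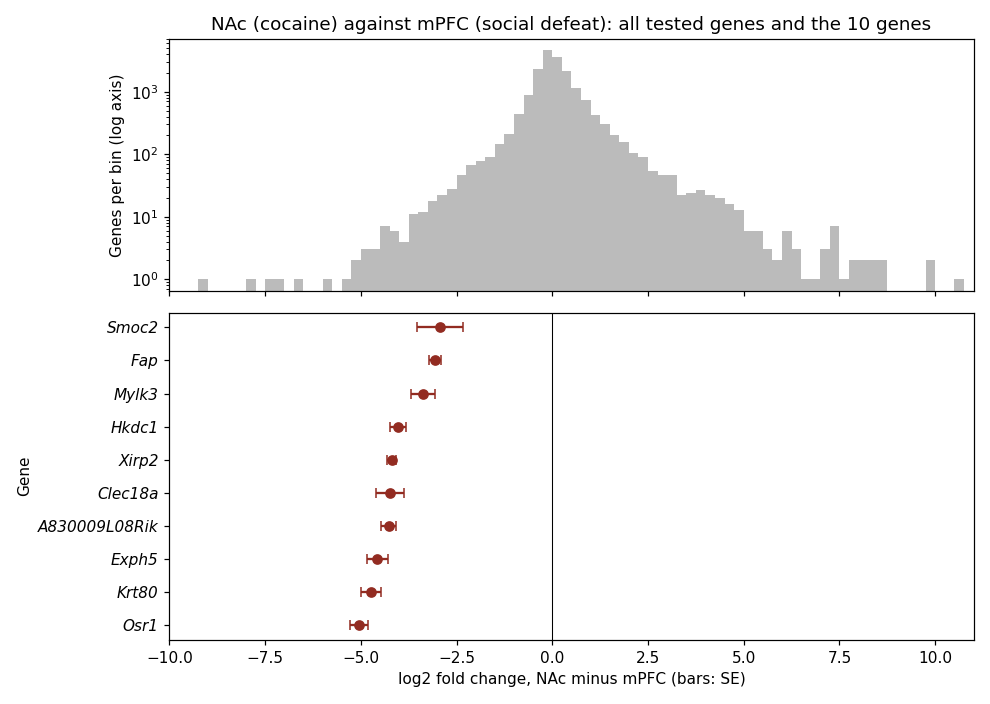
Log2 fold change of NAc (cocaine) against mPFC (social defeat) for all 18362 tested genes as a histogram (upper panel, log count axis) and for the 10 genes with standard errors (lower panel). The 10 genes lie between -5.06 and -2.94, in the sparse left tail of the distribution.

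The regional gap was compared between exposed and home-cage mice by the difference of the log2 fold changes over all 8 libraries. It was smaller in exposed mice for 8 genes and larger for Osr1 and A830009L08Rik, and 0 of the 10 passed, where 0.0% of 18783 genes passed (edgeR). At an unadjusted p under 0.05 there was 1 of the 10, Hkdc1, with a difference of 0.85 (SE 0.359, adjusted p = 1), and 2.21% of all tested genes. The DESeq2 Wald test passed 0 of the 10 and 2 of all genes. A smaller gap in the exposed mice is favoured by choosing the genes for their gap in home-cage mice.

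After social defeat the mPFC levels of the 10 genes stayed close to the home-cage levels. None passed in edgeR, where 0.704% of 18027 genes did, and 8 of 10 log2 fold changes were negative, with a median of -0.12 against -0.00 over all genes. The home-cage mPFC libraries took part in the choice of the genes, which favours lower values after defeat. The 2 with an unadjusted p under 0.05, where 7.14% of genes had one, were Smoc2 at -0.34 (SE 0.0981, adjusted p = 0.0989) and Clec18a at -0.23 (SE 0.0978, adjusted p = 0.528). Krt80 had -0.14 (95% interval -0.32 to 0.03), Exph5 -0.03 (-0.18 to 0.12) and Hkdc1 -0.01 (-0.18 to 0.16). Xirp2 had 0.18 (-0.02 to 0.37) and Osr1 0.15 (-0.11 to 0.41). The DESeq2 Wald test passed 0 of the 10.

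Both defeat libraries were below both home-cage libraries for Krt80, Clec18a, Mylk3 and Fap, and above them for Osr1, where 15.8% and 18.3% of tested genes did so. Smoc2 and Clec18a turned on single libraries. For Smoc2 the value was -0.57 (edgeR adjusted p = 9.86e-09) without mPFC home-cage replicate 1 and -0.08 (adjusted p = 1) without home-cage replicate 2. It was -0.53 (adjusted p = 0.00308) without defeat replicate 1 and -0.18 (adjusted p = 1) without defeat replicate 2. Clec18a had -0.39 (adjusted p = 0.0148) without home-cage replicate 1 and -0.06 (adjusted p = 1) without home-cage replicate 2.

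After cocaine none of the 10 genes passed in NAc, where 0.0% of 18418 genes did in edgeR. This fit left out the NAc number. The fit with it, in which 1 of the 10 passed, is given under the dependence on processing. None had an unadjusted p under 0.05, against 1.15% of genes, and the DESeq2 Wald test passed 0 of the 10. The log2 fold change was positive for 8 of 10, with a median of 0.29 against -0.01 over all genes, and a rise is favoured by choosing genes that were low in home-cage NAc. Hkdc1 had 0.83 (SE 0.375, adjusted p = 1), Xirp2 0.57 (SE 0.246, adjusted p = 1) and Smoc2 1.28 (SE 0.831, adjusted p = 1). For Hkdc1, Xirp2 and Fap the lower cocaine value exceeded the higher home-cage value, against 11.2% of tested genes. Standard errors of 0.217 to 0.831 over the 10 genes stood against 0.0761 to 0.132 in mPFC. Fap lay lower in both defeat libraries and higher in both cocaine libraries, and the difference of these responses was 0.41 (SE 0.199, adjusted p = 1).

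The spread in NAc followed the number in the library labels for 6 of the 10 genes. The labels do not say what the number stands for. With treatment in the model, Krt80, Hkdc1, Clec18a, Exph5, Smoc2 and Mylk3 were higher in the number 2 libraries, where 9.8% of 18783 genes were higher. In these 6, number 2 exceeded number 1 in both treatments, as in 36.9% of genes.

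The ratio of number 2 to number 1 for Smoc2 was 4.30 after cocaine and 2.52 in home-cage mice, or 1.77 on the log2 scale (SE 0.217, edgeR adjusted p = 4.81e-05). For Krt80 the ratios were 1.87 and 4.47 and the log2 value 1.501 (SE 0.229, adjusted p = 0.000301). The 2 treatments gave Krt80 different sizes: it had 0.90 without home-cage replicate 1 or 2 and 2.16 without cocaine replicate 1 or 2, and it passed each time. Clec18a had 1.27 (SE 0.206, adjusted p = 0.000508), Mylk3 1.14 (SE 0.205, adjusted p = 0.00113), Exph5 0.85 (SE 0.091, adjusted p = 1.51e-05) and Hkdc1 0.68 (SE 0.14, adjusted p = 0.00301).

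The other 4 genes did not pass. Fap had 0.15 (95% interval -0.17 to 0.47), Xirp2 0.16 (-0.22 to 0.53), A830009L08Rik 0.16 (-0.24 to 0.56) and Osr1 0.24 (-0.47 to 0.95). Hkdc1, the smallest of the 6 at 0.68, had an interval of 0.41 to 0.96, which overlapped those of all 4. The interval of Osr1, with 9 to 18 counts per NAc library, was the widest of the 4. Whether the 4 differ from the 6 was not tested.

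Markers of cortical glutamatergic neurons moved with the number too: all 11 tested were higher in number 2, with a median log2 fold change of 0.89. Their summed level was 2674 and 3418 CPM in the cocaine libraries and 2581 and 4012 CPM in the home-cage libraries, against 5237 to 5741 CPM in mPFC, and Neurod1 was at 0 in all libraries. Slc17a7 had a log2 fold change of 0.89 (adjusted p = 4.56e-05). All 18 striatal markers were lower in number 2, with a median of -1.80, and so were all 9 oligodendrocyte markers, with a median of -0.48. The oligodendrocyte markers were also all higher in NAc of exposed mice (median 1.02), and their sum was 1374 to 2580 CPM in NAc and 1137 to 1524 CPM in mPFC. The part of these markers in the difference of the 10 genes was not tested.

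**Figure D3:**
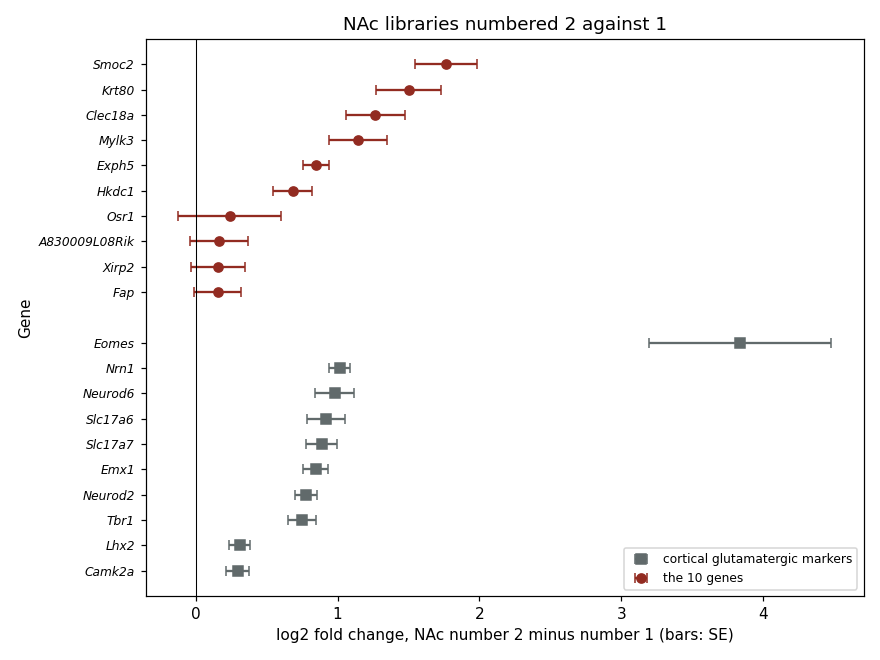
Log2 fold change of NAc libraries numbered 2 against 1, with standard errors, for the 10 genes (circles) and 10 of the cortical glutamatergic markers (squares). Of the 10 genes 6 lie at 0.68 or above and 4 between 0.15 and 0.24, and the markers shown other than Eomes lie between 0.29 and 1.02. The tested marker that is not shown had a value above this range.

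In exposed mice Tbr1, a deep-layer T-box factor, stood in NAc at 59.8% of its mPFC mean and Neurod6 at 31.2%. The 10 genes stood between 2.94% (Osr1) and 12.9% (Smoc2). Not all cortical markers stood above them. The layer 5 marker Fezf2 had 7.42 CPM in NAc and 68.5 CPM in mPFC. Its log2 fold change of -3.19 lay between those of Mylk3 (-3.37) and Fap (-3.06).

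Lists of cortical layer markers did not share the size of the difference. Of 13 tested upper-layer markers 6 were lower and 4 higher in NAc of exposed mice, with a median of -0.39. Of 14 layer 5 markers 7 were lower and 4 higher (median -0.47), and of 16 markers of layer 6 and subplate 3 were lower and 7 higher (median 0.58). The lists are not all specific to cortex. Penk, on the layer 6 and subplate list and higher at 3.94 (SE 0.545, edgeR adjusted p = 0.00545), is also on the striatal list. The counts thus do not measure cortical neurons alone. Besides Osr1, which is itself on the layer 6 and subplate list and is not in these counts, Fezf2, a transcription factor of deep-layer neurons, was the only gene of the 3 lists more than 8-fold lower, with -3.19 (SE 0.366, edgeR adjusted p = 0.0034).

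Other cell types were checked because Osr1, Fap and Smoc2 are also fibroblast genes and Xirp2 and Mylk3 muscle genes. Of 12 other tested markers of meningeal and perivascular fibroblasts, 6 were lower in NAc and 1 higher, with a median of -0.67. Among them Aldh1a2, a retinoic acid synthesis enzyme, had -1.90 (SE 0.222, adjusted p = 0.00355), Dcn, a matrix proteoglycan, -1.02 (SE 0.151, adjusted p = 0.00659) and Tbx18, a transcription factor of pericytes and mesenchyme, -0.93 (SE 0.147, adjusted p = 0.00768). The summed level of the fibroblast list was 72.5 to 83.6 CPM in NAc and 109 to 130 CPM in mPFC, with Igf2 and Ogn at 0 in all libraries. This sum includes the 3 genes, which were picked for their gap, so its difference is partly theirs. Smoc2 alone held 0.717 to 4.91 CPM in NAc and 20.8 to 34.6 CPM in mPFC. Fap held 0.638 to 0.812 CPM and 5.78 to 7.38 CPM. The part of fibroblasts in the 3 genes' difference was not tested.

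Of 12 other tested genes of striated muscle, 5 were lower and 4 higher in NAc, with a median of 0.16. The summed level of that list was 286 to 416 CPM in NAc and 247 to 268 CPM in mPFC, most of it Nebl, an actin-binding protein of the nebulin family, at 254 CPM after cocaine in NAc and 177 CPM after defeat in mPFC. Acta1, the actin of skeletal muscle, and Xirp1 were at 0 in all libraries. So was the microglia marker P2ry12, while Cx3cr1 of the same list had a mean of 32.95 CPM over the 8 libraries. A 0 in all libraries, also for Igf2, Ogn and Neurod1, may thus not mean absence of the RNA. Its cause was not tested. The myosin heavy chain genes Myh1, Myh2 and Myh4 and the troponin gene Tnnt2 were lower, Myh1 by -3.38 (SE 0.271, adjusted p = 0.00146) from 1.16 to 0.11 CPM. Myh7, the slow myosin, was higher at 2.22 (SE 0.423, adjusted p = 0.0132). Of 8 tested epithelial and choroid plexus markers 1 was lower and 4 higher, and the epithelial keratin Krt8 stood at or below 0.0101 CPM in every group.

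The tested relatives of the 10 genes went both ways. Across 9 family lists, 51 relatives were tested in exposed mice: 14 were lower in NAc, 13 higher and 24 did not pass, with a median log2 fold change of -0.11. Over all tested genes 17.1% were lower and 19.2% higher. None of the relatives was 8-fold lower, but only 0.398% of all tested genes were, so this says little about the families. The lowest was Myl4, an atrial and embryonic myosin light chain, at -2.78 (SE 0.18, adjusted p = 0.000886).

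Among hexokinases, Hk1 had -0.49 (SE 0.119, adjusted p = 0.0258). Of 8 tested keratins besides Krt80, 3 were lower in NAc and 2 higher. The lower ones were Krt7 at -2.19, Krt12 at -0.50 (SE 0.101, adjusted p = 0.0155) and Krt222 at -0.48 (SE 0.0651, adjusted p = 0.00527). Krt9 was higher in NAc at 2.46 (SE 0.307, adjusted p = 0.00414) and Krt10 at 0.62 (SE 0.159, adjusted p = 0.0318). In the Rab27 group 4 of 12 tested relatives were higher and 3 lower. Rab27a itself was higher at 1.76 (SE 0.19, adjusted p = 0.00297), as was Rph3al at 3.51 (SE 0.275, adjusted p = 0.00139). Exph5 thus ran opposite to Rab27a, the GTPase it is known to bind, but not to the whole group. The lower ones were Sytl2 at -1.23 (SE 0.0644, adjusted p = 0.000618), Rph3a at -1.14 (SE 0.152, adjusted p = 0.00505) and Myrip at -0.50 (SE 0.113, adjusted p = 0.022). Smoc1, the closest relative of Smoc2, was higher at 1.38 (SE 0.18, adjusted p = 0.00474), and Spock3 at 1.94 (SE 0.405, adjusted p = 0.0173).

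Among myosin light chain kinases Mylk, the smooth muscle form, was higher at 0.88 (SE 0.119, adjusted p = 0.00516). Dpp4, the closest relative of Fap, was lower at -1.94 (SE 0.116, adjusted p = 0.000785), and Dpp6, a potassium channel partner without peptidase activity, was higher at 1.28 (SE 0.14, adjusted p = 0.00307). Pi16, a CAP domain gene, was higher at 2.46 (SE 0.417, adjusted p = 0.00956) and Glipr1 lower at -1.47 (SE 0.168, adjusted p = 0.00336). Osr2 was too low to be tested, with at most 0.015 CPM in a group.

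**Figure D4:**
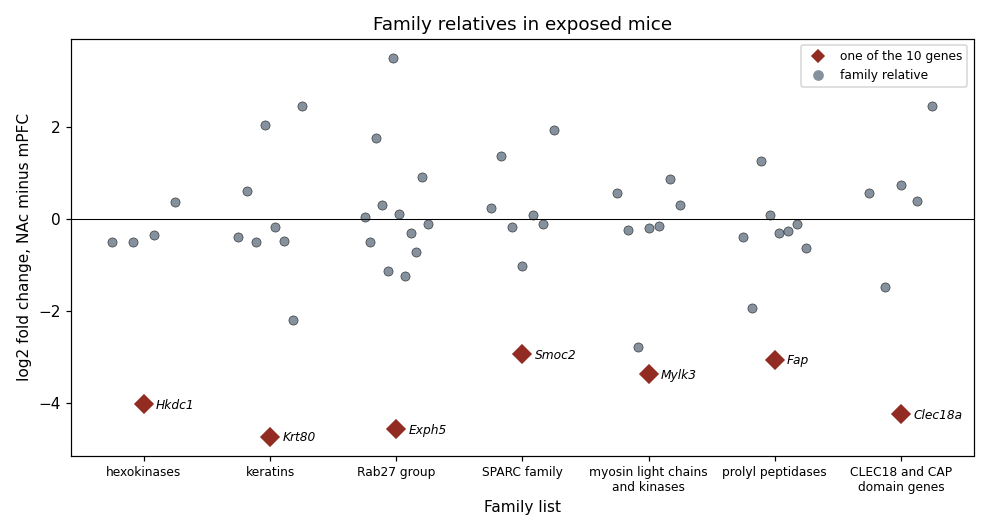
Log2 fold change of NAc (cocaine) against mPFC (social defeat) for 7 of the genes (diamonds) and their tested family relatives (circles). Each of the 7 lies below all of its relatives, the nearest being Myl4 at -2.78 beside Mylk3 at -3.37. The 7 were picked for large regional decreases, which favours this.

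Genes with the most similar profile were found by Pearson's r of log2 CPM with the mean of the 10 over the 8 libraries, which fall into 2 regional clusters, so r is given only as a description. Over 13803 other genes, the highest r were those of Septin6, a cytoskeletal GTPase, and Myl4 (both 0.9989), Adra1b, an alpha-1 adrenergic receptor (0.9988), Osbpl1a, a lipid-binding protein (0.9985), and Rnf152, a ubiquitin ligase (0.9978), and 137 genes had r above 0.99. These profiles share the shape and not the size: Septin6 had 30.7 to 34.9 CPM in NAc and 63.4 to 65.9 CPM in mPFC, and Myl4 had 1.06 to 1.80 CPM and 10.4 to 12.5 CPM.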

How the data were processed

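Total RNA-seq counts were analysed for 8 mouse libraries, 2 per group. The authors deposited unnormalized counts for 33885 gene symbols, NAc and mPFC in separate tables, from reads aligned to mm10 with STAR 2.7.1a and counted with featureCounts, per the submitters' processing notes. Not given in the sources used here: featureCounts' version, annotation release, and strand, intron and multiple-alignment settings, which could change counts of overlapping genes. Replicates of mPFC are numbered in accession order.

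Counts were fitted in R 4.3.3 with edgeR 4.0.16 (filterByExpr, TMM, glmQLFit, glmQLFTest) on all genes, with Benjamini-Hochberg adjusted p under 0.05 as the threshold; the NAc number was fitted as a term beside 4 group means. DESeq2 1.42.0 was an alternative. SE was taken as |log2 fold change| over the root of the F statistic, and 95% intervals as normal intervals from it. With 2 libraries per group such intervals are too narrow: for Hkdc1 after cocaine it was 0.095 to 1.564 at an unadjusted edgeR p of 0.0846. The fits were tested on simulated data. The smallest exact two-sided permutation p for 2 against 2 is 0.33. Coordinates came from GENCODE M21, which matched 33047 symbols.

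The 10 genes and all lists were chosen with earlier results of these data known. Besides the 10, the naming rule took the 3 genes just outside them, up to 2 relatives per family with a group mean of at least 1 CPM and the largest absolute change, the 2 most abundant genes per marker list, up to 3 most changed passing genes of cortical and fibroblast lists, nearest annotated neighbours and the 5 most similar profiles. Krt7, Krt8, Krt12, Krt222, Sytl2, Rph3a, Myrip, P2ry12, Cx3cr1, Osr2 and Atp12a were named after their values were seen. So were Eomes, Neurod1, Igf2, Ogn, Acta1, Xirp1, Myh1, Myh2, Myh4, Myh7 and Tnnt2. Of the genes the rule takes, 2 are not reported here by name.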

Additional observations from a re-analysis of the deposited data

How the results depend on the processing

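In exposed mice 88 of 90 alternative values of the 10 genes kept their direction and side of the threshold; the 2 exceptions were Smoc2 without either social defeat library. With 1 library left out, 9 to 10 of the 10 genes and 1133 to 9334 of all genes passed there. After defeat 58 to 238 of all genes and 0 to 2 of the 10 passed with 1 library left out, 5 of all genes (against 127) when all 8 libraries were fitted, and 1 of the 10 (Smoc2) without the low-count filter. After cocaine, where no gene passed, the DESeq2 Wald test passed 4 genes. For the NAc number 1694 to 3909 of all genes passed with 1 library left out. For the difference of the gaps 0 to 1 did, and the DESeq2 Wald test passed 2 genes.

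The NAc groups share replicate numbers, and same-numbered libraries deviated together (correlation 0.606 across 18338 genes), but with 2 pairs the libraries share only a number. With the replicate block, 38 genes and 1 of the 10 (Smoc2, 1.11, edgeR adjusted p = 0.0196) passed after cocaine.

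Of 490 alternative values of the 10 genes, 23 reversed, each with 1 library left out, and the cause was not tested. The ranges with 1 library left out were, after defeat, -0.095 to 0.079 for Hkdc1, and after cocaine -0.682 to 1.468 for Krt80, -0.445 to 1.078 for Clec18a, -0.341 to 0.624 for Exph5, -0.586 to 0.101 for Osr1 and -0.127 to 2.08 for Smoc2. For the NAc number they were -0.109 to 0.689 for Osr1, -0.023 to 0.388 for Xirp2, -0.001 to 0.309 for Fap and -0.162 to 0.576 for A830009L08Rik. For the difference of the gaps they were -0.546 to 1.615 for Krt80, -0.196 to 1.315 for Clec18a, -0.307 to 0.659 for Exph5 and -0.537 to 0.048 for A830009L08Rik. Where a group was left with 1 library, it was assumed to vary like the others. Counts of 9 to 18 per NAc library limit Osr1.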
